A study of Mus musculus with 2 samples.

Results

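The cells described here are the columnar epithelial cells of the embryonic mouse stomach at embryonic day 15 (E15), taken as the cells that the authors' annotation calls columnar epithelium and whose sample tag is the E15 stomach. They number 140 of the 7808 cells in the data and 140 of the 1540 cells annotated as columnar. The same tag held 742 cells, so 18.9% of the E15 stomach cells were columnar, beside 360 stromal, 111 smooth muscle, 72 neural, 31 immune, 15 cells of a further stromal cluster, 12 endothelial and 1 squamous cell.

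The study profiled the esophagus, the junction where the squamous esophagus meets the columnar stomach (the gastroesophageal squamocolumnar junction, GE-SCJ) and the stomach of wild-type C57BL/6 mice by droplet single-cell RNA sequencing, from the embryo to the adult. Each region and stage was marked with a lipid-anchored oligonucleotide tag, and all tags were run together as 1 library. Per the labels, tissue of 6 mice was pooled at E15, of 2 at E19, of 2 at postnatal day 2 (pup) and of 3 at week 8. The study's methods speak of 3 mice for all tissues, which matches the label at week 8 and differs from the labels of the other stages. The groups compared here carry no transgene and received no treatment, and differ in region, in stage and in annotated cell type. They are the stomach columnar cells at E15, at E19 (366 cells) and in pups (351 cells), the GE-SCJ columnar cells at E15 (53 cells) and E19 (274 cells), and the squamous cells of the E15 esophagus (64 cells) and E15 GE-SCJ (47 cells). The 82 immune cells of all E15 tags, which should lack the epithelial genes, served to show the level that free RNA in the droplets gives. Whether free RNA takes the same share of UMIs in cells of another depth was not tested. Each group is 1 pool of mice, so no test between groups was possible, and stage cannot be told apart from animals, dissection and tag. All intervals are 95% intervals that cover counting error only.

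The glandular stomach forms from the endoderm of the foregut. Its early lining is a layer of dividing columnar cells held together by simple keratins and claudins, from which pit cells, neck and chief cells, parietal cells and endocrine cells later arise. In the mouse the upper part of the stomach, the forestomach, is instead lined by a stratified squamous epithelium like that of the esophagus, where the transcription factor Trp63 and the basal keratins are in use. The endoderm factors of the GATA, FOXA and HNF4 families mark the columnar side, and Sox2 is known from the whole foregut.

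The E15 columnar cells held 3861330 transcript molecules (UMIs) in all, with a median of 24673 per cell (4753 to 77435) and a median of 5381 genes per cell. The E19 stomach columnar cells were read to a like depth per cell, with a median of 24241 UMIs and a total of 9547554. The E15 esophageal squamous cells were shallower, with a median of 14214 UMIs, 3960 genes and a total of 982469. Levels are given as CPM, the number of UMIs of a gene per 1000000 UMIs of all genes, after adding up each group. A gene with no UMI is then below 0.777 CPM in the E15 columnar cells, 0.314 at E19, 3.05 in the squamous cells and 2.95 in the immune cells, taking 3 counts as the upper limit of a count of 0.

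The annotation was made from these counts, and its markers were present. Krt8 (chr15:101996698-102004482, minus strand) and Krt18 (chr15:102028180-102032027, plus strand), the keratin pair of simple epithelia, were found in 140 of 140 cells each. Cldn18 (chr9:99689461-99717267, minus strand), a claudin of gastric tight junctions, was found in 136 cells (97.1%), and Gata4 (chr14:63198922-63271692, minus strand), an endoderm transcription factor, in 129 (92.1%). All 4 markers were present in 127 cells, 3 of them in 11 cells and 2 in the other 2 cells. The immune cells, with a median depth of 11504 UMIs, held Krt8 in 62.2% of cells, Krt18 in 30.5%, Cldn18 in 32.9% and Gata4 in 5 of 82 cells. Positions are those of GENCODE M21 on GRCm38. In single cells Krt8 ran from 122 CPM through a median of 1199 to 6300, so that no cell lacked it but its level spread widely.

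By summed level, Cldn18 set the E15 columnar cells apart most clearly among the 4 markers. By share of cells Gata4 did, found in 92.1% of columnar and 10.9% of squamous cells, beside 97.1% and 26.6% for Cldn18. The level of Cldn18 was 1029.7 CPM at E15 and 1226 at E19, against 35.6 in the squamous cells and 59.0 in the immune cells. The log2 ratio to the squamous cells was 4.81 (4.34 to 5.33), while the squamous level lay below that of the immune cells. Claudin-18 is known to be made in a stomach form and a lung form from separate first exons, and the annotation lists a pair of starts. The 250 bases before each start are shown in the direction of transcription, because Cldn18 carried the clearest separation by summed level. Capitals mark the letters AGATAA and their reverse complement TTATCT, a sequence of the kind that GATA factors bind. Both are RefSeq starts on GRCm38.p6. The windows are chr9:99710064-99710313 (minus strand) for the inner start and chr9:99717268-99717517 (minus strand) for the outer start.

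Cldn18 inner start: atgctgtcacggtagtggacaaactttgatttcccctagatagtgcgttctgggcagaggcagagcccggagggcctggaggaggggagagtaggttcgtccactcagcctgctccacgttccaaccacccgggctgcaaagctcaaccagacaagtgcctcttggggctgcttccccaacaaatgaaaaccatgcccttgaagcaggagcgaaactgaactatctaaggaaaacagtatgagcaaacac
Cldn18 outer start: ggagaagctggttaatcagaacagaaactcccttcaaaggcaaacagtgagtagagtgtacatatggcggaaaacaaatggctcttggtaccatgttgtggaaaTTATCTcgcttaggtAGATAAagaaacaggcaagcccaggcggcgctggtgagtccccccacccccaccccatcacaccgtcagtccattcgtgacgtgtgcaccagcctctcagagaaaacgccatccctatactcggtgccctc

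The window of the inner start held neither AGATAA nor TTATCT. That of the outer start held TTATCT 146 bases and AGATAA 131 bases before the start. Only these letters were searched for and marked. The inner window does hold the closely related agatag and its reverse complement ctatct, so the windows are not told apart by sequences of this kind in general. The sequence was present on either strand in 9.99% of 32851 RefSeq windows of the same length. Of the genes most different from squamous cells by the naming rule below, 1 of the 10 columnar-high genes with a window and 1 of the 8 columnar-low genes with a window held it. Among all 27025 genes 11.4% had a window that held it, and among the columnar markers 2 of the 3 with a window did. Cldn18 counts among these 2 markers through its outer window only. The counting method does not tell the 2 starts apart, and the letters are a description of the window, not a binding site. Which start gives the stomach form was not determined here, so the marked letters cannot be credited to the stomach form.

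The other markers gave the same order between the columnar and squamous cells. Krt8 stood at 1359.9 CPM at E15, 2585.5 at E19 and 1323.8 in pups, against 507.9 in the squamous cells and 123 in the immune cells. Krt18 stood at 832 CPM at E15 and 994 at E19, against 248 in the squamous cells and 79.6 in the immune cells. Gata4 stood at 105 CPM at E15 and 85.7 at E19, against 8.14 in the squamous cells and 8.85 in the immune cells. The keratins were thus shared with squamous cells at a lower level, whereas Gata4 in squamous cells stayed at the level of the immune cells.

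Trp63 and the basal keratins were close to absent. Trp63, the master factor of stratified epithelia, gave 9 UMIs in 9 of the 140 cells, or 2.33 CPM against 268 in the squamous cells. Krt5, a basal keratin, was found in 23 cells with at most 3 UMIs, and Krt15 (chr11:100131758-100135928, minus strand), another basal keratin, in 30 cells with at most 5. Both stood below the immune cells, at 7.25 against 15.7 CPM for Krt5 and 11.7 against 31.4 for Krt15. Other genes of stratified epithelia were present. Sfn was found in 98 cells (74.8 CPM against 520 in the squamous cells and 9.83 in the immune cells) and Perp in 90 (51.3 against 573 and 19.7). Sox2 gave UMIs in 101 cells and a level of 90.1 CPM against 245 in the squamous cells and 1.97 in the immune cells.

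**Figure D1:**
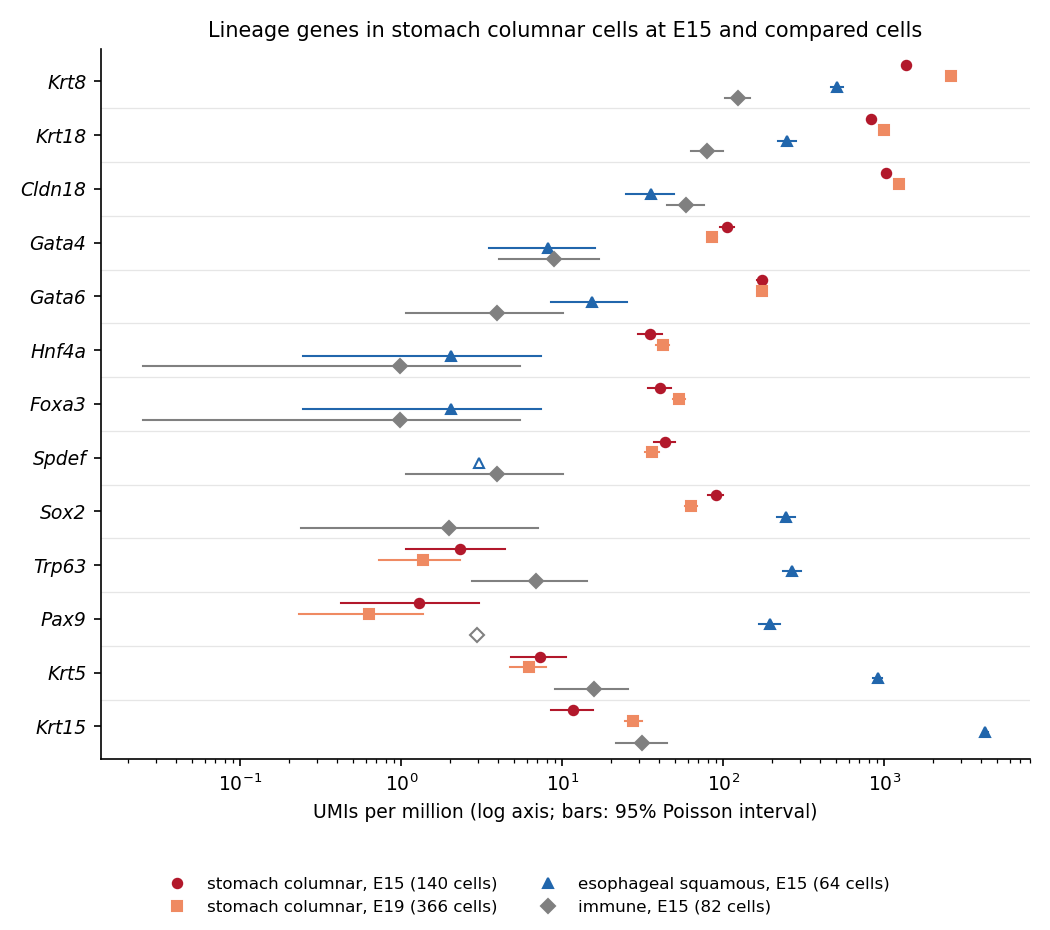
Level of 13 lineage genes in CPM on a log axis, in E15 stomach columnar cells (red circles), E19 stomach columnar cells (orange squares), E15 esophageal squamous cells (blue triangles) and E15 immune cells (grey diamonds), with 95% Poisson intervals. Open symbols stand for 0 UMIs and are drawn at the limit of 3 counts. Cldn18 and Gata4 lay far above both other cell types, Krt5 and Krt15 lay below the immune cells, and Sox2 stood between the squamous and the immune level.

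The first comparison asked what changed in the stomach columnar cells between E15 and E19. A gene counted as different when its level differed at least 2-fold (a log2 ratio of 1 with 1 UMI added to each sum) among the 9207 genes with at least 100 UMIs over both groups. By this measure 239 genes were higher at E15 (2.60%) and 295 were lower (3.20%). The median log2 ratio of all 9207 genes was 0.16, and the middle 90% lay between -0.76 and 0.83. Among the lists, 7 of 12 pit cell genes and 5 of 12 parietal genes were lower at E15, and 6 of 6 precursor and 9 of 15 fetal growth genes were higher. The columnar cells of the GE-SCJ tags gave a second view of the same stages. There, 216 of the 232 E15-high genes with at least 20 UMIs had the same sign (93.1%), and 257 of the 293 E15-low genes (87.7%), beside 76.2% of all 9192 genes. Past 2-fold in the GE-SCJ as well were 113 and 110 of them.

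The genes named from this comparison are the 12 that were furthest apart in each direction, among those with at least 100 UMIs and the same sign in the GE-SCJ cells, so that the shared sign of these 24 genes was required and is no finding. Mdk (midkine, chr2:91929805-91932297, minus strand), a heparin-binding growth factor of embryonic tissues, led the E15-high genes that were spread over many cells. It stood at 608 CPM in E15 stomach columnar cells, with UMIs in 130 of 140 cells. It stood at 39.3 CPM at E19, with UMIs in 145 of 366 cells, and at 12.4 CPM in pups. The log2 ratio was 3.95 (3.79 to 4.11). The GE-SCJ columnar cells gave 907 CPM at E15 and 106 at E19. Mdk was thus high in both E15 regions and low in every later group listed here. The immune cells stood at 81.6 CPM, and the stromal and smooth muscle cells of the E15 stomach, joined as 471 cells, at 1049.

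Since stromal RNA was present in these cells, each level was also set against the joined stromal and smooth muscle cells of the same tag, called stroma from here on (471 cells at E15 and 861 at E19). At E15 the collagen mRNAs Col1a1, Col1a2 and Col3a1 stood in the columnar cells at 4.28%, 3.96% and 4.01% of their stromal level. At E19 they stood at 3.07%, 2.56% and 2.88%. The columnar level of Mdk was 58.0% of the stromal level at E15 and 4.37% at E19. Other stromal markers stood at 1.59% (Myh11) to 11.4% (Postn) at E15. The part of stromal RNA in the level of Mdk was not tested. Over the whole stromal list, 549 CPM were found in the E15 columnar cells and 649 at E19, and 0 of its 9 genes with enough counts were past 2-fold.

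Cldn6 (chr17:23679249-23682446, plus strand), a claudin of embryonic epithelia, was the clearest epithelial member. It stood at 136 CPM in 122 of 140 cells at E15, at 14.0 CPM in 87 of 366 cells at E19 and at 1.66 CPM in pups, with a log2 ratio of 3.27 (2.99 to 3.55). The immune cells held 0 UMIs of Cldn6, and the E15 stromal cells 1.10 CPM. Cldn3, another claudin, behaved alike, with 137 CPM at E15, 27.9 at E19, 16.6 in pups and 0 UMIs in the immune cells. Bex1, a small X-linked protein of signalling in neural and progenitor cells, stood at 145 CPM at E15 and 29.7 at E19. These 3 genes were low or absent in both stromal and immune cells.

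The other E15-high genes of the list were less abundant. Ambp, the precursor of alpha-1-microglobulin and bikunin, stood at 45.6 CPM against 5.03 at E19 (log2 ratio 3.16). Fscn1, an actin-bundling protein, stood at 44.5 against 8.38 CPM, but its level in the immune cells was 44.2. Ddah2, an enzyme of methylarginine breakdown, stood at 43.5 against 8.80 CPM, with 23.6 in the immune cells. The immune level was thus as high as the E15 columnar level for Fscn1 and not for Ambp, which stood at 1.97 CPM there. The histone gene Hist3h2ba (2.55), the paralemmin relative Palm3 (2.51), the cortexin Ctxn1 (2.22) and the connexin Gjc1 (2.21) lay at 21.8 to 34.7 CPM at E15 and at 4.61 to 5.87 at E19.

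Peg10, an imprinted gene derived from a retrotransposon, had the largest ratio under the naming rule (68.9 against 2.09 CPM, log2 ratio 4.97), but only 13 of the 140 cells held it. Of its UMIs, 57.1% lay in 1 cell and 91.7% in 2 cells. Without the 1% of cells richest in the gene the ratio was 1.83, and in the GE-SCJ it was 0.32. Both are among the endocrine cells described further on.

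**Figure D2:**
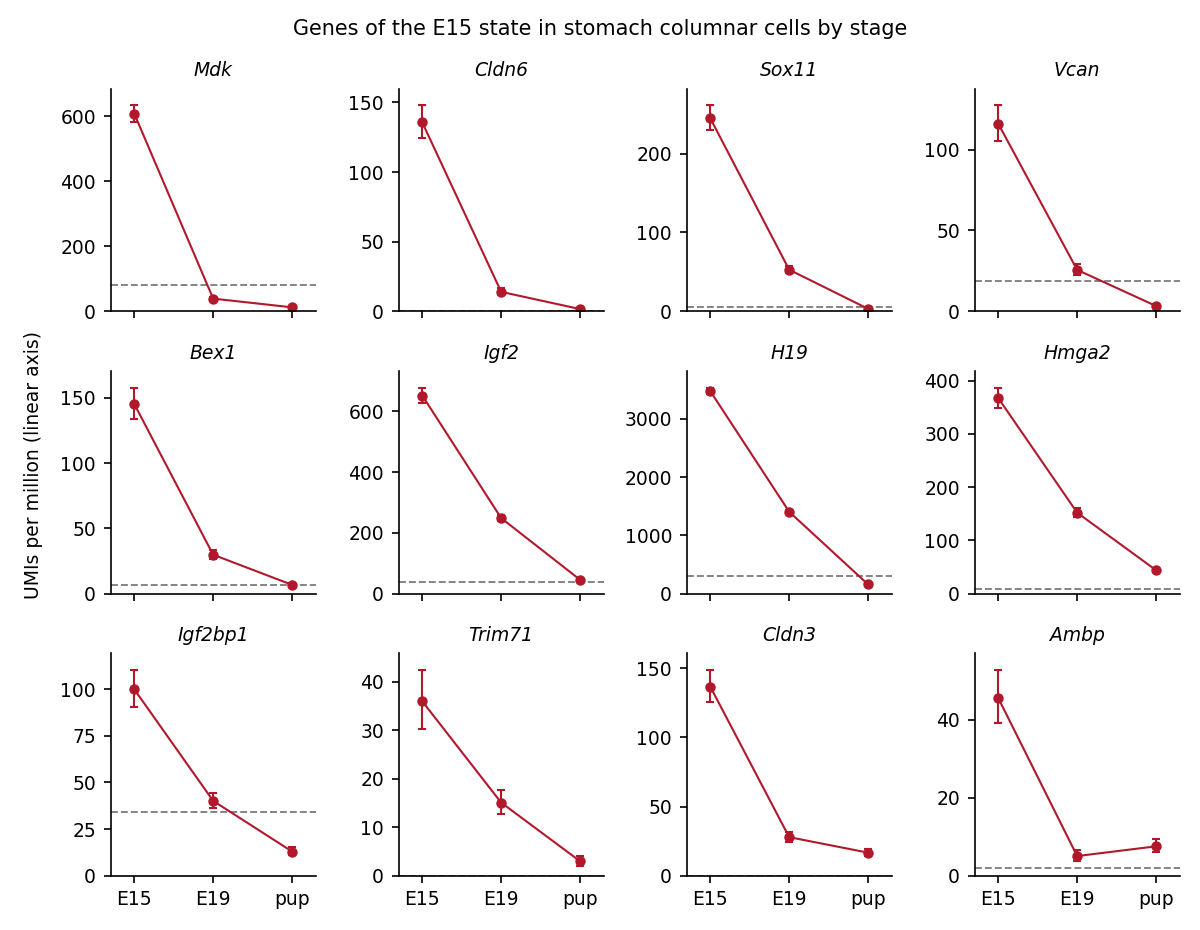
Level in CPM (linear axis from 0, one panel per gene) of 12 genes in stomach columnar cells at E15, E19 and in pups, with 95% Poisson intervals. The dashed line is the level in E15 immune cells. All 12 genes stood highest at E15, and Cldn6, Cldn3 and Trim71 had no UMI in the immune cells.

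The study's embryonic precursor genes Sox11, Igf2, H19, Cldn6, Vcan and Bex1 were all higher at E15 by at least 2-fold, 6 of 6, with a median log2 ratio of 2.19 beside 0.16 for all genes. The study drew this list from epithelial clusters of the same dataset, so the count is not independent evidence of its direction. Sox11, a transcription factor of embryonic progenitors, stood at 245 CPM at E15, 52.8 at E19 and 3.24 in pups. Vcan (versican), a matrix proteoglycan, stood at 116, 25.7 and 3.33 CPM in the same order. The growth factor Igf2 stood at 652, 248 and 45.2 CPM, and H19, the imprinted noncoding RNA beside it, at 3475, 1404 and 156. Each of the 4 genes was lower at each later stage. The E15 stromal cells carried them too, and the columnar level was 83.8% of the stromal level for Sox11, 109% for Igf2, 238% for H19 and 48.9% for Vcan.

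The share of cells with a UMI gave the same picture for the precursor genes when every cell was thinned to 5000 UMIs. Sox11 was found in 57.6% of E15 cells, 17.97% of E19 cells and 1.76% of pup cells, beside 5.97% of immune cells. Cldn6 was found in 46.0%, 6.38% and 1.17%, beside 0 of 67 immune cells. Vcan was found in 35.3%, 10.1% and 2.05%, and Bex1 in 43.9%, 13.0% and 3.23%. At their own depth 89.3% of E15 cells and 40.2% of E19 cells held Sox11. The shares of these cells describe 1 pool per stage.

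Fetal growth and RNA-binding genes were also higher at E15. Of the 15 with enough counts, 9 were past 2-fold, 0 were lower by 2-fold and 15 had a ratio above 0, with a median log2 ratio of 1.25. Igf2bp1, an mRNA-binding protein of fetal tissues, stood at 99.97 CPM at E15 and 40.1 at E19. Hmga2, a chromatin protein of embryonic cells, stood at 367 and 152 CPM. Trim71, a regulator of early development in the let-7 pathway, stood at 36.0 and 15.1 CPM, with 0 UMIs in the immune cells and 0.548 CPM in the E15 stroma. The others past 2-fold were Mdk, Hmga1 (log2 ratio 1.34), Peg3 (1.25), Dlk1 (1.33), Grb10 (1.49) and Ptn (1.11). For Ptn, a relative of midkine, the columnar level was 2.22% of the stromal level, and for Dlk1 it was 8.36%. Dlk1 had 51.4% of its UMIs in 2 cells, and without the richest 1% of cells it stood at 38.0 against 24.4 CPM, within 2-fold. In cells without the distal stomach factors described below, Dlk1 (0.06) and Ptn (0.62) were within 2-fold. Lin28a, Lin28b and Tpbg had fewer than 100 UMIs.

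Few genes of cell division were past 2-fold. All 25 DNA replication genes had a ratio above 0, beside 65.3% of all genes, with a median log2 ratio of 0.63, but only 2 were past 2-fold, Cdc6 (1.08) and Uhrf1 (1.09). All 25 mitosis genes had a ratio above 0, with a median of 0.60, and 0 were past 2-fold. Over both lists 2 genes were past 2-fold, beside 5.80% of all genes. In cells without the distal stomach factors described below, 24 of 25 genes of each list were above 0. In the authors' cell cycle calls, 44 of 140 E15 cells were in G1 (31.4%), 51 in S (36.4%) and 45 in G2/M (32.1%). At E19, 54.6% of cells were called G1, 22.7% S and 22.7% G2/M, and in pups 84.6%, 5.13% and 10.3%. The calls and the gene levels come from the same counts.

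The transcription factors of the endoderm list differed little between the stages. Of 24 genes, 1 was higher at E15 (Onecut2, 1.07) and 1 was lower (Bhlha15, -1.55), and the median was 0.06, close to that of all genes. Of the Onecut2 UMIs at E15, 57.7% lay in 2 cells, and without the richest 1% of cells it stood at 23.3 against 19.7 CPM, within 2-fold. Gata6, a partner of Gata4, stood at 174 CPM at both stages, with a log2 ratio of 0.00. Among junction and simple keratin genes, 3 of 20 were higher (Cldn3, Cldn6 and Cldn4, 1.42) and 2 were lower, Krt19 (-1.17) and Krt20 (-2.84), keratins of maturing gut epithelium. Most lineage factors thus stood within 2-fold between the stages.

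Gland products were on the other side. Of the 12 pit cell genes with enough counts, 7 were lower at E15 by at least 2-fold and 0 were higher, with a median log2 ratio of -1.77. Gkn1 and Gkn2, secreted gastrokines of the surface, stood at 98.9 and 122 CPM at E15 against 693 and 671 at E19. The trefoil peptide Tff1 stood at 1568 CPM against 6829. Cym, which encodes the milk-clotting protease chymosin, stood at 5135 CPM against 36498. It was counted in the pit list, and whether pit cells are its source was not tested. For these products the free RNA was large. The E15 immune cells held 127 CPM of Gkn1, 188 of Gkn2, 405 of Tff1 and 3602 of Cym. The summed E15 columnar level of Gkn1 and Gkn2 was thus below that of the immune cells. The immune cells were shallower, with a median of 11504 UMIs against 24673. In the columnar cells, 31.7% of the Gkn1 UMIs and 27.9% of the Gkn2 UMIs lay in 1 cell each. The summed level of Tff1 was above the immune level, but 10 cells held 48.4% of its UMIs and the median cell stood at 408 CPM. After thinning, Gkn1 was found in 28.1% of E15 columnar cells and 34.3% of immune cells, and Tff1 in 78.4% and 74.6%.

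The chief and parietal cell lists held lower genes as well. Pga5 (chr19:10668956-10678071, minus strand), a pepsinogen, stood at 787 CPM at E15 and 6939 at E19, with a log2 ratio of -3.14 (-3.19 to -3.09), but the immune cells also stood at 783 CPM. Cym and Pga5 together took 0.592% of all UMIs at E15 and 4.34% at E19. Of the 12 parietal genes with enough counts, 5 were lower and 1, the water channel Aqp4 (1.39), was higher, with a median of -0.90. The proton pump subunit Atp4a stood at 69.4 CPM against 232 at E19 and 86.5 in the immune cells, and the carbonic anhydrase Car2 at 254 against 1033. Of 7 neck and chief cell genes, 3 were lower (Pga5, Dmbt1 at -2.33 and the chief cell factor Bhlha15 at -1.55) and 1 was higher. This 1, the neck cell mucin Muc6, went the other way, 209 against 91.1 CPM, with 56.8% of its E15 UMIs in 1 cell. Without the richest 1% of cells its log2 ratio was -0.25.

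The other E15-low genes named had varied known functions. Fam3b (chr16:97470965-97514816, minus strand), a secreted cytokine-like protein, stood at 1.29 CPM in 5 of 140 cells at E15 and 27.2 CPM in 126 of 366 cells at E19, with a log2 ratio of -4.14. Nqo1, a quinone reductase, stood at 15.8 against 169 CPM. Il18, an epithelial cytokine, stood at 10.6 against 112 CPM, with 53.1 in the immune cells. All 3 genes were present in E15 cells at counts far below those of E19. The sulfotransferase Sult1c2 (5.18 against 67.6 CPM) and the mucin Muc5b (24.9 against 203, with 38.3 in the immune cells) lay in the same range. Cst8 gave 2 UMIs at E15 against 121 at E19, a log2 ratio of -4.04 (-6.34 to -2.46). Kcnk3 (-3.14), Ces2g (-2.91), A630076J17Rik (-3.28) and the small proline-rich gene Sprr2a3 (-3.05) completed the list, the last with near-identical copies that may share reads.

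Hbb-bt, a hemoglobin gene of red cells, also met the rule, at 35.2 CPM against 281. Of its E19 UMIs 54.1% lay in 1 cell, the ratio was -0.48 without the richest 1% of cells, and the immune cells stood at 2209 CPM. All 4 erythroid genes with enough counts were lower at E15 (median -2.65). Without the richest 1% of cells all 4 were lower as well, but only 2 of them by at least 2-fold. Sex-linked genes moved with stage as well. Xist, which female cells express, stood at 241 CPM at E15 and 681 at E19, and the Y-linked Ddx3y at 50.8 and 28.3, so that both genes were present at both stages in unlike shares. The part of these differences in the result was not tested.

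The signalling lists held 10 genes past 2-fold of 68 with enough counts, 14.7%, beside 5.80% of all genes. Of the hedgehog genes, 0 of 5 were past 2-fold. Among 16 WNT genes, the receptor Fzd7 was higher at E15 (log2 ratio 2.16) and the ligand Wnt4 lower (-1.17). Among 8 NOTCH genes, Notch3 was higher (1.20) and the feedback regulator Nrarp lower (-1.10). Among 13 BMP and TGF-beta genes, the receptor Bmpr1b was higher (1.53), and Bmp2 (-1.06) and the inhibitor Smad6 (-1.24) were lower. Of 26 growth factor genes 3 were higher, Etv4 (2.27), Spry2 (1.10) and Ephb2 (1.03). Etv4 and Spry2 are known targets of FGF signalling. Bmp2 (-0.87), Notch3 (0.98), Spry2 (0.98) and Ephb2 (0.95), counted among the 10, were within 2-fold in cells without the distal stomach factors described below. 

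**Figure D3:**
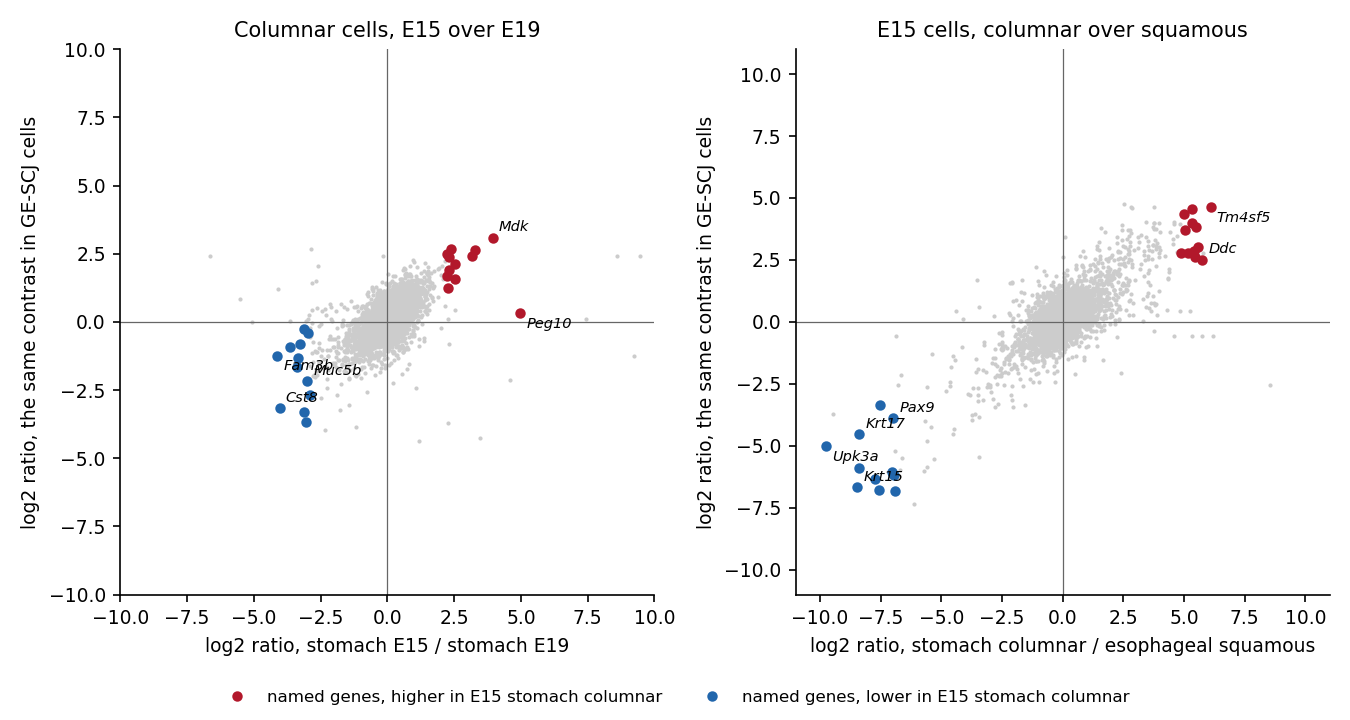
Log2 ratio in stomach cells (x axis) against that in GE-SCJ cells (y axis), one point per gene, for E15 over E19 columnar cells and for E15 columnar over E15 squamous cells. Grey points are all genes with at least 100 UMIs, and red and blue points are the named genes, for which the same sign in the GE-SCJ was required. Mdk and Cldn6 lay far from 0 on both axes, at 3.95 and 3.27 in the stomach and 3.09 and 2.63 in the GE-SCJ.

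The second comparison set the E15 columnar cells against the E15 squamous cells of the esophagus, the other epithelium of the same embryonic foregut. Among 6367 genes with at least 100 UMIs, 515 were higher in columnar cells (8.09%) and 405 were lower (6.36%), with a median log2 ratio of -0.01. The annotation was made from the same counts, so differences in lineage genes describe the label. Columnar and squamous cells of the E15 GE-SCJ tag had the same sign for 461 of 499 columnar-high genes (92.4%) and 325 of 397 columnar-low genes (81.9%), beside 63.3% of all 6343 genes. The endoderm factors Gata4, Gata6, Foxa3, Hnf4a and Spdef were higher in columnar cells, and Trp63, Krt5, Krt15 and Pax9 were lower.

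Of the 20 endoderm transcription factors with enough counts, 11 were higher in columnar cells and 3 were lower, with a median log2 ratio of 1.33. Gata6 stood at 174 CPM against 15.3, Foxa3 at 40.4 against 2.04 and Hnf4a at 35.2 against 2.04. Spdef, an ETS factor of secretory cells, stood at 43.2 CPM against 0 UMIs, at least 14.2-fold higher with the squamous level taken at its limit. The others that were higher were Gata4, Foxq1 (1.11), Elf3 (1.80), Onecut2, Sox9 (1.54), Esrrg (1.58) and Nkx6-3. The 3 lower were Sox2 (90.1 against 245 CPM, -1.45), Ehf (-2.05) and Grhl2 (-1.20), which are in use in stratified epithelia.

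The 12 columnar-high genes named by the same rule held several enzymes and carrier proteins. Tm4sf5 (chr11:70505244-70511178, plus strand), a membrane protein of gut and liver epithelium, stood at 138 CPM in 112 of 140 cells, against 1 UMI in the 64 squamous cells (log2 ratio 6.09, 4.23 to 9.14). Ddc, which decarboxylates aromatic amino acids, stood at 54.1 CPM against 0 UMIs, at least 17.7-fold higher. Ttr, the thyroxine and retinol carrier of liver, stood at 532 CPM against 15.3, with 32.8% of its UMIs in 1 cell, and at a ratio of 5.14 without the richest cells against 5.03 with them. Cpn1, a carboxypeptidase, stood at 165 CPM against 3.05, and Maob, a monoamine oxidase, at 65.0 against 1 UMI (log2 ratio 5.0, 3.13 to 8.06). The immune cells lay at or below 7.86 CPM for each of these 5 genes.

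Gstm3, a glutathione transferase, was at least 15.9-fold higher than in squamous cells, Ambp at least 14.9-fold, Prap1 at least 13.4-fold and Trim71 at least 11.8-fold. The aldo-keto reductases Akr1c13 (223 against 4.07 CPM) and Akr1c12 (119 against 3.05) completed the list. They and Gstm3 belong to families of close copies among which reads may be divided. Of the 4 intestine and liver genes with enough counts, 4 were higher in columnar cells, Ttr, Rbp4 (4.31), Apoa1 (3.77) and Olfm4. Of the Rbp4 UMIs, 89.1% lay in the 5 endocrine cells described further on, and the other 135 cells stood at 13.4 CPM against 5.09 in squamous cells. In cells without the distal stomach factors the ratio of Rbp4 was 0.34. Most pit genes were higher as well, 7 of 10, and 0 were lower, with a median of 2.06. The count includes Tff2, which without its 2 richest cells stood at 238 CPM against 190 in all squamous cells. So were 8 of 18 junction and simple keratin genes, among them Cldn7 (1.80) and Ocln (1.18), while the desmosome gene Dsp was lower (-2.07).

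On the other side, 19 of the 21 squamous genes with enough counts were lower in columnar cells, with a median log2 ratio of -4.43. Krt15 stood at 11.7 against 4247 CPM, Krt5 at 7.25 against 912 and Krt17 at 1.04 against 437. Pax9, a factor of foregut and oral epithelium, stood at 1.29 against 194 CPM. These genes were found in most squamous cells, 61 of 64 for Krt15 and Krt5, 51 for Krt17 and 53 for Pax9. Between the stages of the stomach columnar cells, 5 of 14 squamous genes were lower at E15 and 0 were higher. Against the squamous cells Fgfbp1 differed by less than 2-fold (-0.65). Itga6, the laminin receptor subunit that basal cells use, was the member that was higher in columnar cells, at 145 against 43.8 CPM (1.70).

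The columnar-low gene with the largest ratio was Upk3a (chr15:85017141-85022547, plus strand), a uroplakin of the urothelial surface, at 1 UMI against 452 CPM. It came from 12 of the 64 squamous cells, with 28.2% of its UMIs in 1 cell. Upk3bl, its relative, was found in 54 squamous cells (3.63 against 483 CPM). Trim29 (-8.40), Dsg3 (-7.73), Sema3d (-7.53) and Dapl1 (-6.99) were among the 12. The 12 also held Cyp2f2 (2.59 against 545 CPM) and Cbr2 (1.04 against 170), enzymes known from airway secretory cells, in 53 and 47 of 64 squamous cells. Whether airway tissue was part of the esophageal dissection was not tested. Cyp2f2 and Cbr2 were thus found in most squamous cells rather than confined to a few as Upk3a was.

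Ligands and receptors were divided between the 2 epithelia. The shares over all genes, beside which the counts below stand, were 8.09% higher and 6.36% lower in columnar cells. Of 4 hedgehog genes, Ihh was higher in columnar cells (108 against 4.07 CPM, log2 ratio 4.41), and Shh (28.7 against 104, -1.85), the receptor and target Ptch1 (46.9 against 214, -2.19) and Smo (-1.40) were lower. Of 8 WNT genes, the receptors Fzd5 (124 against 12.2 CPM, 3.23) and Lgr4 (1.46) were higher, and the ligand Wnt4 (20.7 against 521, -4.64), Fzd3 (-1.83) and Rnf43 (-1.61) were lower. The columnar cells thus had more of 1 hedgehog ligand and less of the other. Of 9 BMP genes, Bmp2 (2.01) and the targets Id1 (1.93) and Id3 (2.01) were higher, and Bmp7 (-1.36) and Bmpr2 (-1.06) were lower. In cells without the distal stomach factors Bmpr2 (-0.83) and, among the genes named here, Fgf9 (0.98) and Ocln (0.97) were within 2-fold. Of 20 growth factor genes 3 were higher, Fgf9 (1.10), Etv5 (3.47) and Kitl (1.83), and 7 were lower, among them Egfr (-2.49), Pdgfa (-1.76) and Fgfr2 (31.3 against 255 CPM, -3.02).

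Embryonic genes were not a columnar property. Of the 6 precursor genes, Cldn6 (2.48) and Bex1 (1.41) were higher in columnar cells, and Sox11 (245 against 496 CPM, -1.02) and Vcan (-1.12) were lower. In cells without the distal stomach factors Sox11 (-0.91) and Vcan (-0.39) were within 2-fold. Of the 15 fetal genes Hmga2 (2.05), Mdk (1.07) and Trim71 were higher, and Ptn (-4.63) and Tpbg (-2.20) were lower. Replication genes were within 2-fold for 22 of 22, with a median of 0.46, and the mitosis list had 2 of 24 higher and a median of 0.28. The squamous cells carried more stromal RNA, with 2041 CPM summed over 10 stromal markers against 533 in the columnar cells, for example Dcn at 505 against 23.8. Of the 8 stromal genes with enough counts, 5 were lower in columnar cells. The part of stromal RNA in the squamous-high genes was not tested, while immune markers were alike at 13.5 and 11.2 CPM.

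Within the E15 embryo, the stomach columnar cells differed little from the GE-SCJ columnar cells. Among 6534 genes, 54 were higher in the stomach (0.826%) and 52 were lower (0.796%), with a median log2 ratio of -0.05. Of 21 endoderm factors, 2 were higher in the stomach and 1 was lower. Onecut2 gave 208 UMIs in the stomach and 0 in the GE-SCJ, at least 23.8-fold higher. Of these UMIs 57.7% lay in 2 cells, and without them Onecut2 stood at 23.3 CPM against the GE-SCJ limit of 2.27. Nkx6-3 (chr8:23153269-23158948, plus strand) stood at 56.2 against 6.80 CPM (2.90). Sox2 was lower in the stomach, at 90.1 against 194 CPM (-1.11). The ligand Shh was lower too (28.7 against 97.4, -1.76), as was Cym (5135 against 21894, -2.09). Other gland products were higher in the stomach, Gkn3 (244 against 31.0 CPM, 2.94), Muc6 (209 against 31.7, 2.69), Agr2 (943 against 344, 1.45) and Pgc (1718 against 639, 1.43), and Dmbt1 (-1.41) and Muc5ac (-1.12) were lower. For Gkn3, Muc6 and Pgc, 2 stomach cells held 66.8%, 70.3% and 61.6% of the UMIs. Without them the levels were 81.9, 62.8 and 671 CPM, for Muc6 and Pgc within 2-fold of the GE-SCJ. The immune cells stood at 32.4, 67.8 and 2040 CPM for these genes. For Pgc this was above both columnar groups, and for Muc6 above the level without those 2 cells.

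Onecut2, Nkx6-3 and Pdx1 are homeobox and cut-type factors known from the distal stomach (antrum and pylorus) and the pancreas and duodenum beside it. These 3 were looked at within the E15 cells after their values were seen. Nkx6-3 was found in 63 of the 140 cells, Pdx1 in 36 and Onecut2 in 23. Nkx6-3 and Pdx1 were both present in 29 cells, 80.6% of the Pdx1 cells and 46.0% of the Nkx6-3 cells. Onecut2 and Nkx6-3 were both present in 18 cells, 78.3% of the Onecut2 cells and 28.6% of the Nkx6-3 cells. Onecut2 and Pdx1 shared 9 cells (39.1% and 25% of each), and 34 cells held 1 factor only. At least 1 of the 3 was present in 74 of 140 cells (52.9%, 44.2% to 61.3%), and at least 2 in 40 (28.6%). The share with at least 1 was 36.6% at E19 and 24.8% in pups. In the E15 GE-SCJ columnar cells it was 9.43% (5 of 53), with 0 of 53 cells holding at least 2. In the background cells it was 2.44% of immune cells (2 of 82) and 0 of 64 squamous cells, which allows up to 4.69%.

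The E15 cells were then divided by how many of the 3 factors they held, a division by detection and not into cell types, with 34 cells that held exactly 1. Depth differed between the classes, with a median of 31789 UMIs in the 40 cells with 2 or 3 factors, 23022.5 in the 34 cells with 1 and 23299 in the 66 cells with none. Cym stood at 1842, 1682 and 8937 CPM in that order, beside 21894 in the GE-SCJ cells and 3602 in the immune cells, so that cells with a factor lay below the immune level. Tff1 ran the other way, at 2693, 1962 and 611 CPM. Mdk stood at 308, 316 and 945 CPM, and Sox2 at 53.0, 91.5 and 115. By summed level, cells without the factors were thus nearer to the GE-SCJ cells for Cym, Mdk and Sox2 but not for Tff1, which stood at 1641 CPM there. The highest GE-SCJ cell held 44333 CPM of Tff1. In the median cell Tff1 stood at 865, 651 and 279 CPM in the same order of classes. The GE-SCJ median was 324 CPM, nearest to the cells without a factor. Gata6 (145, 142 and 209 CPM) and Krt8 (1544, 1680.5 and 1092) differed less, and Cldn18 least (956, 1104 and 1049). The brush border gene Vil1 stood at 31.6, 35.6 and 12.7 CPM, and Etv4 at 33.2, 30.5 and 11.6.

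Cells without a factor again stood highest for Cym, Mdk and Sox2 and lowest for Tff1 when every cell was thinned to 10000 UMIs and classed anew, which left 16, 38 and 76 cells. Cym then stood at 600, 1837 and 6855 CPM, Tff1 at 2706, 2029 and 1097, and Sox2 at 25, 63.2 and 116. Nepn, which encodes the matrix protein nephrocan and was picked after its values were seen, gave 287 UMIs in 20 cells. Of these 12 held 2 or 3 of the factors, 8 held 1 and 0 held none. Nepn had 0 UMIs in the E19 and pup stomach columnar cells, in the GE-SCJ columnar cells, in the immune cells and in the stomach stroma. Cdx2, the intestinal homeobox factor, gave 17 UMIs from 3 cells with 2 or 3 factors and 3 UMIs elsewhere.

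**Figure D4:**
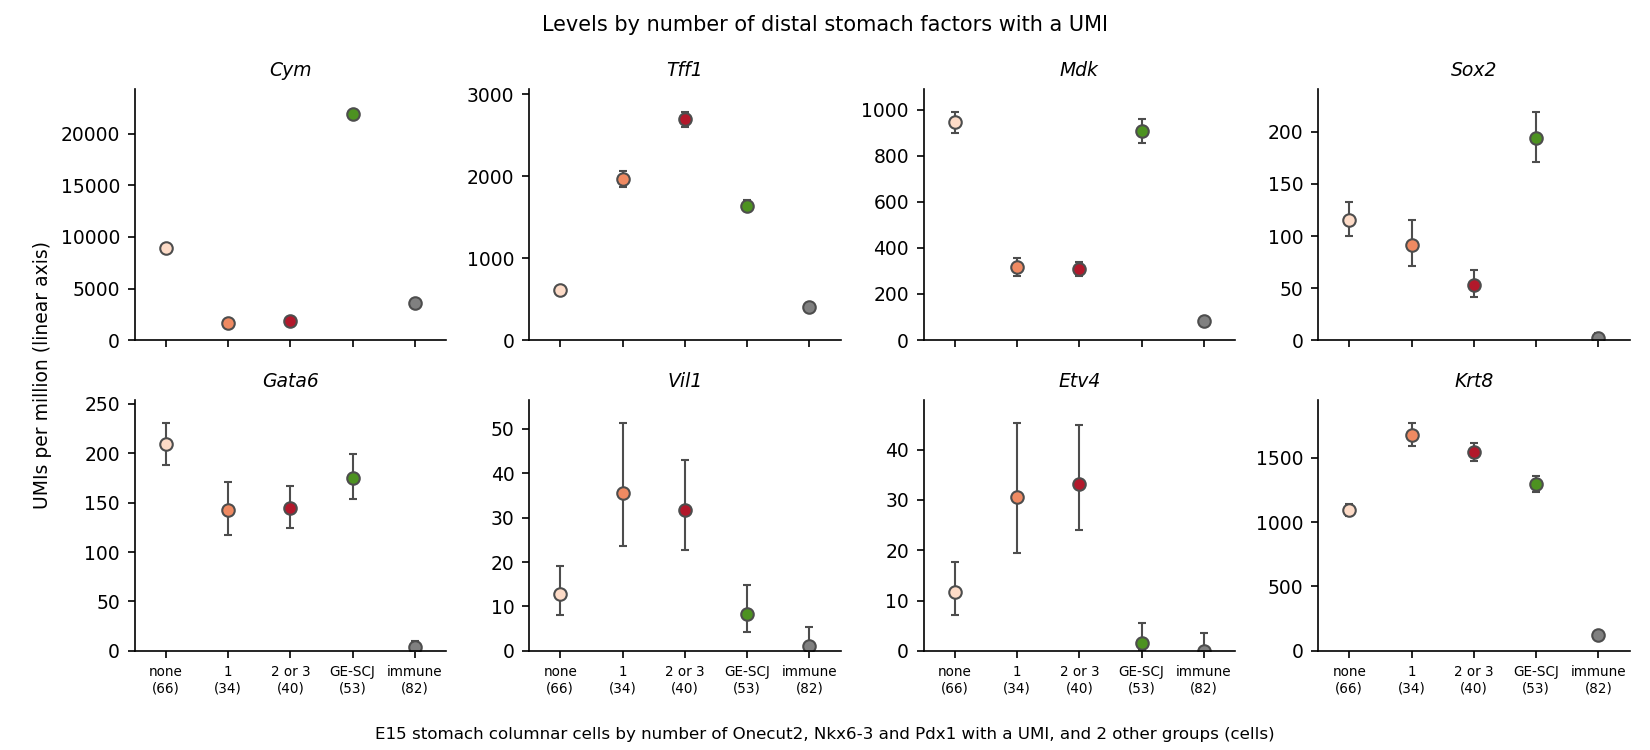
Level in CPM (linear axis from 0, one panel per gene) of 8 genes in E15 stomach columnar cells with none (66 cells), 1 (34) and 2 or 3 (40) of Onecut2, Nkx6-3 and Pdx1, in E15 GE-SCJ columnar cells (53) and in E15 immune cells (82), with 95% Poisson intervals. Cym, Mdk and Sox2 stood highest among the stomach cells in those without a factor, and Tff1 in those with 2 or 3.

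Because the share of such cells differed between stages, the comparison with E19 was repeated on cells without a UMI of the 3 factors, 66 at E15 and 232 at E19. Of 7433 genes tested, 187 were higher and 241 lower at E15. Of the 534 genes past 2-fold in all cells, 319 had enough UMIs here and 261 were past 2-fold in the same direction. Of the 24 named genes, 23 were past 2-fold with the same sign, Hbb-bt (-0.15) being the exception. Mdk stood at 945 against 51.4 CPM (4.20), Cldn6 had a ratio of 3.18 and Sox11 of 2.14. Among the products, Cym (8937 against 48101 CPM, -2.43), Tff1 (-2.25) and Pga5 (-2.98) were lower at E15. Gkn3 (225 against 51.6 CPM, 2.12), Pgc (1871 against 883, 1.08) and Muc6 (140 against 67.6, 1.05) were higher, genes of which 2 of the 140 cells held 66.8%, 61.6% and 70.3% of the E15 UMIs. Against the squamous cells the same restriction gave 308 columnar-high genes of 4387 tested (7.02%), in place of 515 of 6367 (8.09%). Named stage ratios that came within 2-fold in these cells included those of Cdc6 (0.86), Uhrf1 (0.96), Bmp2 (-0.87), Notch3 (0.98), Spry2 (0.98) and Ephb2 (0.95). Those of Dlk1 and Ptn, given above, and of Chgb, Cpe, Gast, Gcg, Ghrl and Pyy, given below, did so too.

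Among the 140 cells themselves, variation was measured as the Fano factor (variance over mean of UMIs per cell) after thinning to 10000 UMIs, which left out 10 cells. Over 3119 genes with a mean of at least 0.5 UMI, the median Fano factor was 1.18, near the 1 that counting alone gives, and 37 genes were above 10. Most of the 15 highest were secreted products concentrated in a few cells. Ghrl (ghrelin) had 90.0% of its UMIs in 1 cell, Gast (gastrin) 94.8%, Ctrb1 (chymotrypsinogen) 99.8%, Pnliprp1 (a pancreatic lipase relative) 99.3% and the trefoil peptide Tff2 72.9%. Rbp4 (61.8%), Pyy (59.0%), Peg10 (57.1%), Muc6 (56.8%), Pgc (34.5%), Ttr (32.8%), Pga5 (22.4%) and Clps (21.8%) were less concentrated. Cym (10.6%) and the nuclear noncoding RNA Malat1 (2.71%) varied across many cells. Pgc, a pepsinogen, stood at 1718 CPM in columnar and 2040 in immune cells, and at 671 in columnar cells without the 2 richest.

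**Figure D5:**
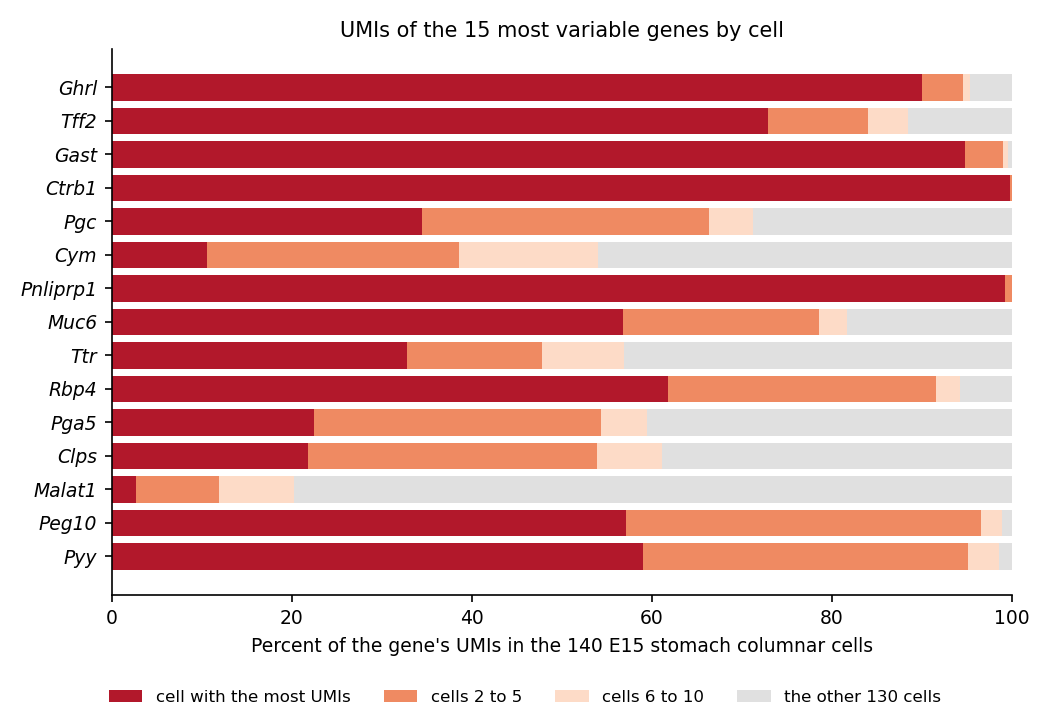
Share of a gene's UMIs (percent, stacked bars that sum to 100) that lay in the richest cell, in cells 2 to 5, in cells 6 to 10 and in the other 130 of the 140 E15 stomach columnar cells, for the 15 genes with the highest Fano factor. Ctrb1 and Pnliprp1 lay almost wholly in 1 cell, whereas Malat1 and Cym were spread.

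The peptide hormones came from very few cells. Of the 140 cells, 5 held at least 5 UMIs over Neurod1, Chga, Chgb and Insm1, genes of the endocrine lineage. These 5 cells held 89.9% of the UMIs of those genes, a share that follows in part from choosing the cells by the same genes. All 5 were called G1. Their share was 3.57% (1.17% to 8.14%) at E15, 1.37% (0.445% to 3.16%) at E19 and 0.855% in pups, and it was 0 of 53 in the E15 GE-SCJ columnar cells, which allows up to 5.66%. Of 9 endocrine genes with enough counts, 5 were at least 2-fold higher at E15 and 2 lower, beside 2.60% and 3.20% of all genes. Chgb (-0.38), Cpe (-0.02), Gast (-0.90), Gcg (-0.97) and Ghrl (-0.16), higher in all cells, fell below 0 in cells without the distal stomach factors. Pyy, lower at E15 in all cells, had a ratio of 0.62 there and of 1.31 without the richest 1% of cells. The lower ratio of Sst came from 1 E19 cell that held 95.8% of its E19 UMIs. The intervals cover the counting of cells only, and each stage is 1 pool.

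The 5 cells were unlike each other. A cell of 9658 UMIs held 71 UMIs of Chgb, a granule protein, 27 of Cck (cholecystokinin) and 12 of Pyy. Another of 26193 UMIs held 2543 UMIs of Ghrl, 91 of Gcg (glucagon), 52 of the endocrine factor Isl1 and 152 of Peg10. The next, of 14188 UMIs, held 854 UMIs of Gast, 118 of Ghrl, 85 of Pyy, 30 of Isl1 and 92 of Peg10. The last 2 cells thus held abundant hormone RNA of different kinds. Of the others, 1 held 8 UMIs of Insm1 and 3 of Chga, and 1 held 5 of Fev and 5 of Pax6, transcription factors of endocrine cells, and 52 of Rbp4. The columnar marker Cldn18 gave 0, 0, 1, 15 and 1 UMIs in the 5 cells in this order, and Krt8 gave 15, 12, 13, 16 and 1. In the other 135 cells Ghrl stood at 43.0 CPM, below the 83.5 of the immune cells, Gast at 2.90 against 1.97 and Peg10 at 4.75.

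A single cell carried pancreatic exocrine RNA. It was named after its values were seen. Of its 30050 UMIs, 1902 came from the digestive enzyme genes Ctrb1 (1466), Pnliprp1 (279) and Cpa1 (157), and it also held 76 of the trypsin inhibitor Spink1 and 1 of Pdx1. It held 0 UMIs of Cldn18 and 25 of Krt8, while no other E15 columnar cell held more than 1 UMI over the 3 enzyme genes. Cells of other organs in the dissected tissue cannot be told apart from cells of the stomach by these counts.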

How the data were processed

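Cells were dissociated with collagenase, tagged by region and stage, pooled and run as 1 droplet library, so no cell barcode is shared between libraries. The authors aligned the reads to mm10 and counted UMIs per gene with Cell Ranger 6.1.1 (submitters' processing notes), and removed cells by genes, UMIs and mitochondrial percent. The deposited counts are whole UMIs without normalization for 19550 genes (16 without a UMI) and 7808 cells, the number left by the study's own filters. Per the deposited cell table the authors also gave each cell a cluster annotation, a tag, a cell cycle phase and a percent of mitochondrial UMIs (median 2.07 in the E15 stomach columnar cells, 2.54 at E19). Adult stomach cells had not been assigned to tags and were not used here.

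UMIs were summed per group and given as CPM with exact Poisson intervals. Log2 ratios used 1 UMI added to each sum, with an exact conditional interval, and the threshold was 2-fold among genes with at least 100 UMIs. Shares of cells have Clopper-Pearson intervals. Each group is 1 pool, so there is no test and no p-value. No doublet caller was run. Leaving out cells with possible mixed markers (more than 10% of marker UMIs from another class) removed 98 of 140, 162 of 366 and 56 of 64 cells, and is an alternative only. On simulated data 100% of genes changed 4-fold passed 2-fold. Of unchanged genes 0% did in the stage comparison (9176 genes) and 0.0647% in the epithelial comparison (6366 genes). The counting intervals covered 0 for 95.6% and 96.1% of these unchanged genes. The simulation thus speaks for counting error only. It gives no error rate for RNA concentrated in a few cells or for differences between pools. The 12 genes named per direction needed the same sign and at least 20 UMIs in GE-SCJ cells, the 15 most variable genes came from the Fano factor, and the rest from 25 gene lists. Members and lists were chosen with earlier results of these data known. Alternatives were thinning, cell filters, UMI minimum, UMIs added, library size, mean of cells, and 2 added after seeing the data (the richest 1% of cells of each gene left out, and cells without distal factors). The Gif gene of chief cells was not analysed here. Figures were drawn with matplotlib 3.10.9, and values computed with scipy 1.17.1, pandas 2.3.3 and numpy 2.4.6 under Python 3.11.15.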

Additional observations from a re-analysis of the deposited data

How the results depend on the processing

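No paired analysis was possible because each region and stage is 1 pooled sample without replicate numbers. Counts of genes depended on the settings that change how many UMIs a gene needs. Of genes past 2-fold between E15 and E19 (239 higher, 295 lower), 58 and 124 were found with every cell thinned to 5000 UMIs, 2268 and 1072 with no UMI minimum, and 17 and 82 with at least 1000 UMIs. Between columnar and squamous cells (515 and 405), the values were 121 and 73, 1357 and 3345, and 48 and 15, and 289 and 84 without possible mixed cells. With 10 UMIs added, 317 were higher in columnar cells, and without distal-factor cells 308. The share of calls that were higher went from 44.8% to 54.8% (10 UMIs added), 31.9% (thinned), 17.2% (at least 1000 UMIs) and 67.9% (no UMI minimum) for stage, and from 56.0% to 38.7% (10 UMIs added), 77.5% (without mixed cells), 76.2% (at least 1000 UMIs) and 28.9% (no UMI minimum) for columnar against squamous. Shares of cells lower at E15 than at E19 with intervals apart numbered 1 (Gkn1), against 0 at own depth, 2 at 2000 UMIs and 3 with at least 2 UMIs asked for. Of the 15 most variable genes, 4 were among the top 15 without mixed cells.

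Among the gene ratios between stages, 1883 values over the alternatives moved by less than the half-width of their interval, 439 moved more and 15 of genes past 2-fold changed sign. Ratios were left out where both groups held at most 3 UMIs (Ppy and Iapp, for example), and genes within 2-fold that changed sign are among those that moved or did not. The sign changed without mixed cells for Gcg (-0.92), Spink1 (-1.45) and Sst (0.14), without distal-factor cells for Chgb (-0.38), Cpe (-0.02), Gast (-0.90), Gcg (-0.97), Ghrl (-0.16), Pyy (0.62), Slc38a5 (-0.50) and Spink1 (-0.38), and without the richest 1% of cells for Gcg (0.0), Muc6 (-0.25), Pyy (1.31) and Spink1 (-0.47). For columnar against squamous cells the numbers were 1617, 326 and 10. There the sign changed without mixed cells for Areg (0.91), Col1a2 (2.03), Cpe (-1.26), Esrrg (-0.19), Gast (-2.0) and Ghrl (-1.29), without distal-factor cells for Cpe (-1.17), Gast (-1.47) and Ghrl (-0.21), and without the richest 1% for Ghrl (-0.12). The cause was not tested. The 64 squamous cells held 982469 UMIs, which limits the precision of that comparison.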

Other observations

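Single cells also carried hormone RNA at E19, where these values were picked after they were seen. All 247 UMIs of Ppy and all 113 UMIs of Iapp in the E19 stomach columnar cells came from 1 cell, and 95.8% of the 2469 UMIs of Sst (somatostatin) came from 1 cell.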
